A study of Homo sapiens with 8 samples.

Results

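The 9 formin genes FMN1, FMN2, FMNL1, FMNL2, FMNL3, DIAPH1, DIAPH3, DAAM1 and DAAM2 were examined for H3K4me1, the single methyl group on lysine 4 of histone H3 that marks enhancers and the flanks of active promoters. They are 9 of 19974 protein-coding genes on chromosomes 1 to 22 and X, and 9 of 15 human formin genes considered. They were chosen by measured values of these data, namely the bases covered by peaks, the peak positions and the local input level implied by each peak, so these values are given as a description, with no test. Each gene was read over its RefSeq record plus 5 kb on either side.

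The data are chromatin immunoprecipitation sequencing of MDA-MB-231, an established triple-negative breast cancer cell line. Control cells were set beside cells with a knockout of ARID1A, the gene of a subunit of the BAF (SWI/SNF) chromatin remodeller. Each genotype had 2 immunoprecipitated and 2 input samples, and the deposit holds a single list of peaks over input for each genotype (hg38). The labels do not say how the knockout was made, whether it is a clone, or whether the samples are separate cultures. With 1 list per genotype there is no spread between replicates, and every difference given here is between these 2 lists.

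Formins are large proteins that nucleate and elongate unbranched actin filaments. Their FH2 domain forms a ring that stays on the growing filament end, and their proline-rich FH1 domain feeds it actin bound to profilin. The diaphanous-related formins (the DIAPH, FMNL and DAAM proteins among these) are held closed by contacts between their own ends and are opened by small GTPases. FMN1 and FMN2 form a separate group that works with the SPIRE nucleators. In cells of mesenchymal shape, formins build stress fibres, filopodia and the cortical actin used in migration. The H3K4me1 mark says nothing by itself about how much of any of these proteins was made.

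On chromosomes 1 to 22 and X the control list held 82994 peaks covering 183.2 Mb, and the knockout list 73600 peaks covering 176.3 Mb. Read totals were not used here, so depth is unknown. The shortest control peak was 312 bases and the shortest knockout peak 361, and median pileup (the authors' signal of stacked fragments) was 13.6 and 16.4, so the lists differ in more than their peaks. At ARID1A itself 44673 control and 39191 knockout bases were covered, which does not check the knockout, since a peak list does not show whether a product is lost. All 5 genes fixed as active in this line (VIM, CD44, AXL, EGFR and CAV1) were covered in both lists, over 21.0% to 47.5% (control) and 19.2% to 53.8% (knockout) of their windows. Of the 5 genes fixed as low or absent, PGR had 1081 control and 0 knockout bases, whereas GATA3 had 14247 and 14490, so the mark does not separate these markers cleanly.

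Coverage differed among the 9 formin genes in both directions, and by far the most at FMN2 and FMN1. A gene was called different where its covered bases differed by 1000 or more. FMN1, FMN2, FMNL1 and FMNL2 were higher in the knockout list, which is 4 of 9, where 20.2% of all protein-coding genes were called in that direction. FMNL3, DIAPH1 and DIAPH3 were lower, which is 3 of 9, against 30.0% of all genes. DAAM1 and DAAM2 differed by less than 1000 bases. The FMNL1 call was kept under only 1 of the 8 other settings described below. Of the 9 records 7 are at least 100000 bases long, and among the 3351 protein-coding genes of that length 32.0% were called higher and 44.9% lower. Among peaks past a −log10 q of 5 the counts were 5 higher and 4 lower, where 26.7% and 17.7% of all genes, and 41.1% and 23.5% of the long ones, were called. Nothing is read from these counts, because the same values chose the genes. The median difference was 149 bases over the 9 genes and 0 over all protein-coding genes. The 9 genes together had 366732 bases under 128 control peaks and 487032 under 126 knockout peaks. Most of that excess was at FMN2 and FMN1, whose differences were 74367 and 43740 bases. The near-equal peak totals hide changes within genes, from 23 control to 32 knockout peaks at FMN1 and from 20 to 14 at DIAPH3.

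**Figure D1:**
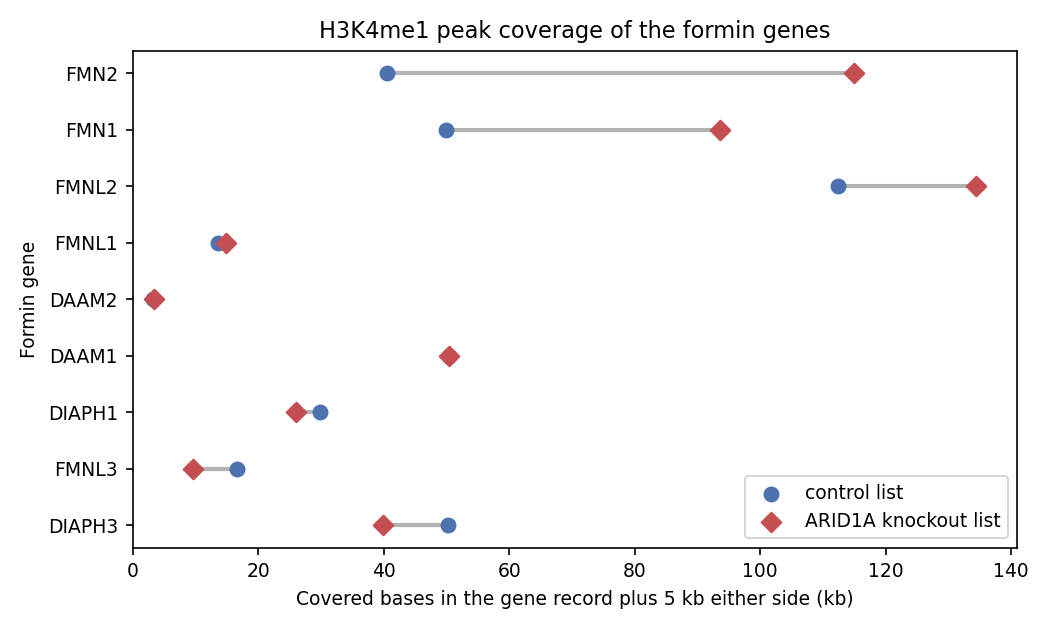
Covered bases (kb, x axis) of each formin gene (y axis, ordered by the difference) in the control list (circles) and the ARID1A knockout list (diamonds), 1 list per genotype, over the gene record plus 5 kb on either side. FMN2 and FMN1 show the widest gaps, with 114890 and 93634 bases in the knockout list against 40523 and 49894 in the control list, while DAAM1 and DAAM2 show almost none.

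FMN2 makes the actin network that positions the spindle in oocytes and is also known from the cell cortex and the nucleus of somatic cells. Its record lies on the plus strand of chromosome 1 (240091883 to 240475187). Control peaks covered 10.3% of its window and knockout peaks 29.2%, or 2.84 times as many bases. The number of peaks was nearly the same, 25 control and 26 knockout. Peaks were wider, with a median of 1399 control and 2413 knockout bases, and the widest control and knockout peaks were 5098 and 25198 bases. None of the 25 control peaks reached a −log10 q of 5 (the strongest was 4.91), and 9 of the 26 knockout peaks did, up to 12.4. Over the whole lists 23884 of 82994 control peaks and 27571 of 73600 knockout peaks reached it. These q values are the authors' and rank peaks within a list.

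Most of the added bases at FMN2 belonged to knockout peaks that share at least 1 base with a control peak. That overlap was often small, so such bases need not lie close to a control peak. One knockout peak of 11870 bases (240462975 to 240474844), for example, shared 1667 bases with control peaks. Both lists covered 32947 bases, the knockout list alone covered 81943 and the control list alone 7576. Of the bases found in the knockout list alone, 65219 (79.6%) belonged to peaks that overlap a control peak and 16724 to the 9 peaks that overlap none. At FMN2 9 of 26 knockout peaks overlapped no control peak, against 21.3% of the whole knockout list. The widest knockout peak (chromosome 1, 240407965 to 240433162) spans a stretch in which the control list had 2 separate peaks, and it shared 3193 bases with them. The strongest knockout peak (240307144 to 240316805, −log10 q 12.4) contains a control peak of 5098 bases (240308799 to 240313896) whole. The widest knockout peak with no control overlap was 3857 bases long (240366414 to 240370270), and the widest control peak with no knockout overlap was 2453 bases long (240099854 to 240102306).

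Along FMN2 the difference lay away from its start. With each record divided into 3 equal parts, in the 5′ part the control list covered 5817 bases and the knockout list 3896, the opposite order to the whole gene. In the middle part the values were 14086 and 44474 bases, and in the 3′ part 20000 and 66189. All 9 knockout peaks that overlap no control peak lay in the middle part (7) or the 3′ part (2).

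**Figure D2:**
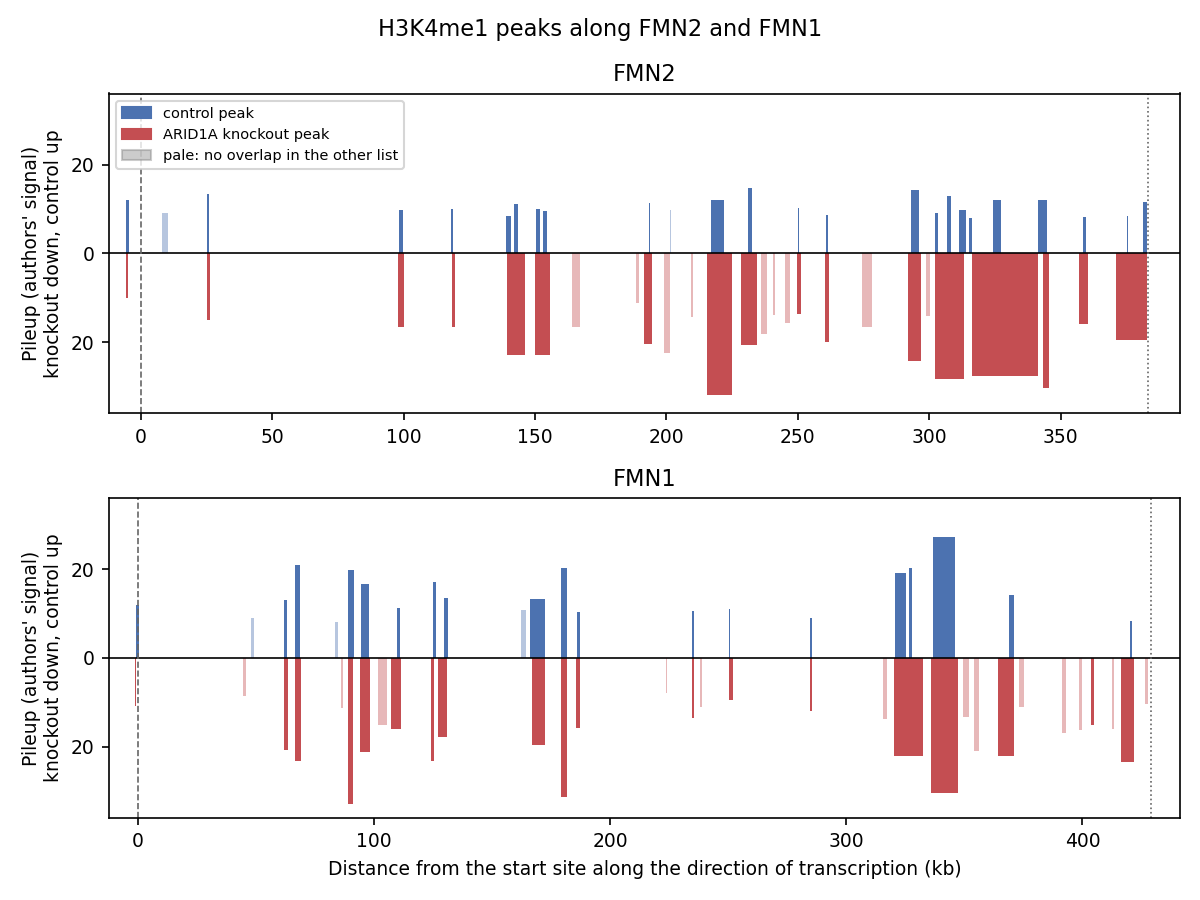
H3K4me1 peaks along FMN2 (top) and FMN1 (bottom), with distance from the start site in kb (x axis, dashed line at the start, dotted line at the record's end) and the authors' pileup (y axis), control peaks drawn up and knockout peaks drawn down, pale where a peak overlaps none of the other list. At FMN2 the wide knockout peaks lie in the middle and 3′ parts of the gene, and at FMN1 most of the peaks found in the knockout list alone lie in its 3′ part.

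The input level moved with the FMN2 result. The input background behind a peak was estimated as (pileup + 1) / fold − 1, where fold is the authors' enrichment of the peak over its own input. Over all peaks the medians were 3.70 (control) and 4.61 (knockout), a ratio of 1.25. At FMN2 the medians were 2.95 and 5.91, so the ratio there was 1.61 times the genome-wide one. Median pileup was 10.0 for control peaks and 17.4 for knockout peaks, while median fold was almost level, at 2.85 and 2.81. Taken site by site, 17 knockout peaks overlapped a control peak. Pileup was higher in the knockout list at 16 of these 17 sites, with a median ratio of 1.79, against 1.17 over all 57915 such sites. Fold was higher at 10 of 17, with a median ratio of 1.10, against 0.968 over all sites. Over all such sites pileup was higher in the knockout list at 72.03% and fold at 43.7%. The part of the input level in the FMN2 difference was not tested. Among peaks with a fold of at least 4 the difference shrank to 0 control and 9662 knockout bases, the single peak named above as the strongest.

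Sequence around FMN2 shared part of this pattern. In the 1 Mb on either side of its window, 154495 control and 226128 knockout bases were covered, 1.46 times as many, and the background ratio was 1.25 times the genome-wide one. Upstream of FMN2, 176432 bases away, CHRM3, a muscarinic acetylcholine receptor gene, had 56857 control and 87585 knockout bases. The fold change in bases was thus larger over FMN2 (2.84) than over its flanks (1.46), with no test of that difference.

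Among 3703 other protein-coding genes with a window of at least 100000 bases, the 3 most like FMN2 in the percent covered in the 2 lists were SEMA3C, PPARG and SLC1A3. SEMA3C, which encodes a secreted semaphorin, had 8.52% control and 29.8% knockout coverage, at a distance of 1.88 percentage points over the 2 lists. PPARG, a nuclear receptor gene, had 14.9% and 30.3% (4.74 points away), and SLC1A3, a glutamate transporter gene, 15.1% and 28.5% (4.81 points). The background ratio relative to the whole genome was 1.79 at SEMA3C, 0.755 at PPARG and 0.9998 at SLC1A3.

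FMN1, whose product acts at cell junctions and which is best known from limb development, lies on the minus strand of chromosome 15 (32765544 to 33194714). It had 23 control peaks over 11.4% of the window and 32 knockout peaks over 21.3%, 1.88 times as many bases. Peaks of −log10 q of at least 5 numbered 8 of 23 and 12 of 32. Over the whole lists they numbered 23884 of 82994 (control) and 27571 of 73600 (knockout). Here the input level was close to the rest of the genome, with medians of 3.45 and 4.40 and a ratio of 1.02 times the genome-wide one. Median pileup was 13.1 and 16.0 and median fold 3.18 and 3.07. At the 19 sites shared by knockout peaks, pileup was higher in the knockout list at 17 and fold at 11, with a median fold ratio of 1.06. The shares over all shared sites were 72.03% for pileup and 43.7% for fold.

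Most of the FMN1 difference lay in its 3′ part, and the region around the gene differed in the same direction. In the 1 Mb on either side the knockout list held 1.61 times the control bases (30865 control and 49720 knockout), against 1.88 times at the gene. The 5′ part had 16774 control and 26324 knockout bases, the middle part 13571 and 14759, and the 3′ part 18727 and 52104. At FMN1 13 of 32 knockout peaks overlapped no control peak, against 21.3% of the whole knockout list. Of those 13 peaks, 8 lay in the 3′ part, where no control peak stood alone. The gene next to that end, 20437 bases away, is GREM1, which encodes a secreted antagonist of bone morphogenetic proteins. In the vertebrate limb, enhancers of GREM1 are known to lie inside FMN1. GREM1 itself had 1135 control and 2300 knockout bases. Of the bases covered in the knockout list alone at FMN1, 30311 (59.3%) were in peaks that overlap a control peak and 20801 in peaks that do not. The strongest peak of the control list (32848524 to 32857908, −log10 q 13.0, fold 5.33) lay in the 3′ part, inside a knockout peak of 11614 bases with a fold of 4.50. The strongest knockout peak (33103478 to 33105752, −log10 q 17.2, fold 6.33) lay in the 5′ part and overlapped a weaker control peak (−log10 q 9.11). At a fold of at least 4, FMN1 had 15672 control and 27862 knockout bases.

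**Figure D3:**
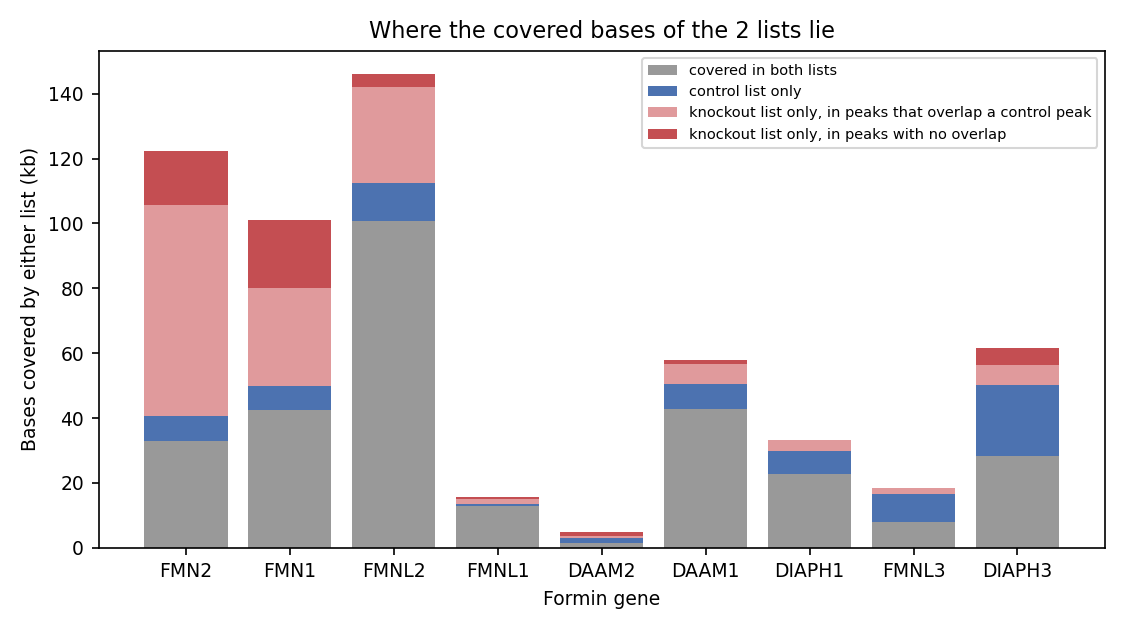
Bases covered by either list (kb, y axis) at each formin gene (x axis), split into bases covered in both lists, in the control list alone, and in the knockout list alone within peaks that overlap a control peak or within peaks that do not. At FMN2 the largest portion is coverage in the knockout list alone within peaks that overlap a control peak (65219 bases). At FMNL2 and DAAM1 the largest portion is coverage found in both lists (100802 and 42890 bases).

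The FMNL genes encode formins that bind Cdc42 or Rac and act in lamellipodia and filopodia. FMNL2, on the plus strand of chromosome 2 (152335174 to 152649826), had the most covered bases of the 9 genes in both lists, 112382 control and 134378 knockout, or 34.6% and 41.4% of its window, while FMNL1 had a higher percent in both. It had 24 control and 21 knockout peaks, and 69.1% of the bases covered by either list were covered by both. Its strongest knockout peak was 23365 bases wide (152392925 to 152416289, −log10 q 12.9) and shared 21427 bases with control peaks. Median pileup was 16.9 (control) and 24.4 (knockout), median fold 3.28 and 3.47, and the background ratio 1.13 times the genome-wide one. In the 1 Mb on either side the order was the other way, with 85470 control and 59577 knockout bases. Among peaks of a fold of at least 4 the direction at FMNL2 turned, with 55288 control and 44610 knockout bases.

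FMNL1, a formin gene best known from blood cells (chromosome 17, plus strand, 45221885 to 45247318), had 4 peaks in each list, over 38.3% and 42.1% of the window. One wide peak just inside the gene dominated both lists, 9283 bases among control peaks (45223107 to 45232389, −log10 q 22.7) and 9379 among knockout peaks (45222926 to 45232304, −log10 q 24.7), with 9198 bases in common. The excess of 1330 knockout bases came to -2 when both lists were given the same merging distance and shortest peak (14912 and 14910 bases). That setting removed the call. Of the 8 alternatives tried, only 10000 bases either side kept it. The record alone gave 517 bases and a fold of at least 4 gave 96. A −log10 q of at least 3 and the strongest 50000 peaks each gave 878. FMNL3 (chromosome 12, minus strand, 49636499 to 49707405) had 6 control peaks over 16592 bases and 4 knockout peaks over 9583 bases. Of its control peaks 3 overlapped no knockout peak, the widest of 3971 bases (49670278 to 49674248, −log10 q 3.69), and every knockout peak overlapped a control peak. Over the whole lists 28.2% of control peaks and 21.3% of knockout peaks had no overlap. In the 1 Mb around FMNL3 the knockout list held 0.769 times the control bases, and at the gene 0.578 times. The implied background medians at FMNL3 were 3.16 (control) and 4.97 (knockout), 1.26 times the genome-wide ratio, and 1.14 times over shared peaks alone. Fold was higher in the knockout list at 0 of the 4 shared knockout peaks (median ratio 0.755), against 43.7% of all shared sites. The part of the input level in the FMNL3 difference was not tested.

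The DIAPH genes encode the formins downstream of RhoA that build stress fibres and, for DIAPH3, act in the cleavage furrow and in amoeboid migration. DIAPH1 (chromosome 5, minus strand, 141515021 to 141619000) had 9 control peaks over 29870 bases and 7 knockout peaks over 26113. All 7 knockout peaks overlapped a control peak, whereas 21.3% of the whole knockout list overlapped none. The strongest DIAPH1 peak stood at the same place in both lists, near the 3′ end (control 141518407 to 141524779, knockout 141518432 to 141524707), with a fold of 4.84 and 5.35. At the 7 sites shared by knockout peaks, pileup was higher in the knockout list at 7 and fold at 5, with a median fold ratio of 1.11. The shares over all shared sites were 72.03% for pileup and 43.7% for fold. Once peaks under a −log10 q of 5 were dropped the order of covered bases turned, with 15859 control and 19979 knockout bases. That cut also moved the shares of all protein-coding genes called higher and lower, from 20.2% and 30.0% to 26.7% and 17.7%. Past a −log10 q of 3, and among the strongest 50000 peaks of each list, DIAPH1 stayed lower, with 28741 control and 25671 knockout bases. Its sign turned under 2 of the 8 alternatives tried.

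DIAPH3 (chromosome 13, minus strand, 59665583 to 60163928) is the longest of the 9 records and one of the least covered, at 9.89% and 7.83%. The 20 control peaks covered 50255 bases and the 14 knockout peaks 39826, and 10 control peaks and 4 knockout peaks overlapped none of the other list. Over the whole lists 28.2% of control peaks and 21.3% of knockout peaks overlapped none. The control peaks were weak, with a median −log10 q of 1.96 against 3.85 in the knockout list. At all 10 sites shared by knockout peaks the pileup was higher in the knockout list, with a median ratio of 1.66, while fold was higher at 4 of 10 (median ratio 0.979). The shares over all shared sites were 72.03% for pileup and 43.7% for fold. The implied background was 2.75 in the control list, near the lowest of that list (2.40), and 5.13 in the knockout list, 1.50 times the genome-wide ratio. The part of the input level in the DIAPH3 difference was not tested. The direction at DIAPH3 depended on how peaks were selected. At a −log10 q of at least 3 it had 16612 control and 23439 knockout bases, and at 5 it had 7097 and 18240. At a fold of at least 4 it had 1811 and 8159. Those were a single peak in each list, at different sites, and the counterpart of each fell below the cut. Among the strongest 50000 peaks of each list DIAPH3 stayed lower, with 33706 control and 26307 knockout bases. The deficit in the full lists was mostly in the 5′ part, with 27910 control and 17394 knockout bases.

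**Figure D4:**
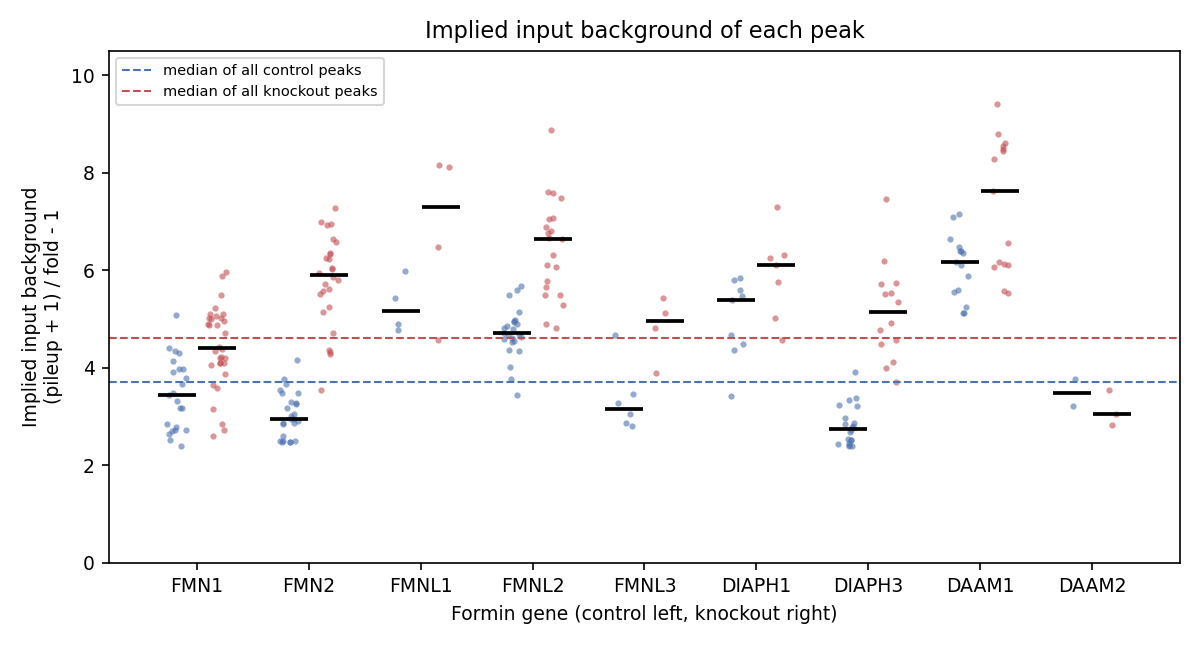
Implied input background of every peak, (pileup + 1) / fold − 1 (y axis), at each formin gene (x axis), control peaks left and knockout peaks right, with the median of each as a black bar and the medians of all control peaks (3.70) and all knockout peaks (4.61) as dashed lines. At FMN2 and DIAPH3 the control peaks lie mostly below the control line and the knockout peaks mostly above the knockout line, whereas at FMN1 both medians lie below their lines.

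The DAAM genes encode formins that act with Dishevelled in planar cell polarity signalling. DAAM1 (chromosome 14, plus strand, 59188667 to 59371405) had 15 peaks in each list, 50451 control and 50364 knockout bases, and 74.0% of the bases covered by either list were covered by both. Its strongest peak lay near the 3′ end in both lists (59357274 to 59366290 and 59357180 to 59366500), with a control fold of 6.48 and a knockout fold of 5.21. Its widest peak, 17582 control and 18403 knockout bases, started 2276 and 2395 bases downstream of the second start site. DAAM2 (chromosome 6, plus strand, 39792376 to 39904869) was the least covered member by bases, with 2 control peaks over 3185 bases and 3 knockout peaks over 3334. Among peaks past a −log10 q of 5 both genes were lower in the knockout list, DAAM1 with 45007 control and 41002 knockout bases and DAAM2 with 2135 and 0, whereas past a −log10 q of 3 DAAM1 was higher, with 47975 and 49259.

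Start sites were read from the RefSeq promoter windows (GRCh38.p14, whose coordinates are those of hg38), which run from 250 bases before to 50 bases after each start. All 9 genes matched, with 13 start sites. At 5 of them, in FMNL1, FMNL2, the first start of DAAM1, the first of DIAPH3 and the second of FMN1, both lists left the start bare and had a peak on each side within 5 kb, 304 to 3060 bases away. The same shape in both lists was found at 26.8% of 22132 start sites of protein-coding genes. The second start of DIAPH3 had no peak within 5 kb in either list, and FMN2 had its nearest peaks upstream, 4381 (control) and 4670 (knockout) bases away. Control peaks covered the start base itself at 1 of 13 starts and knockout peaks at 2, against 15.0% and 24.1% of all those start sites.

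**Figure D5:**
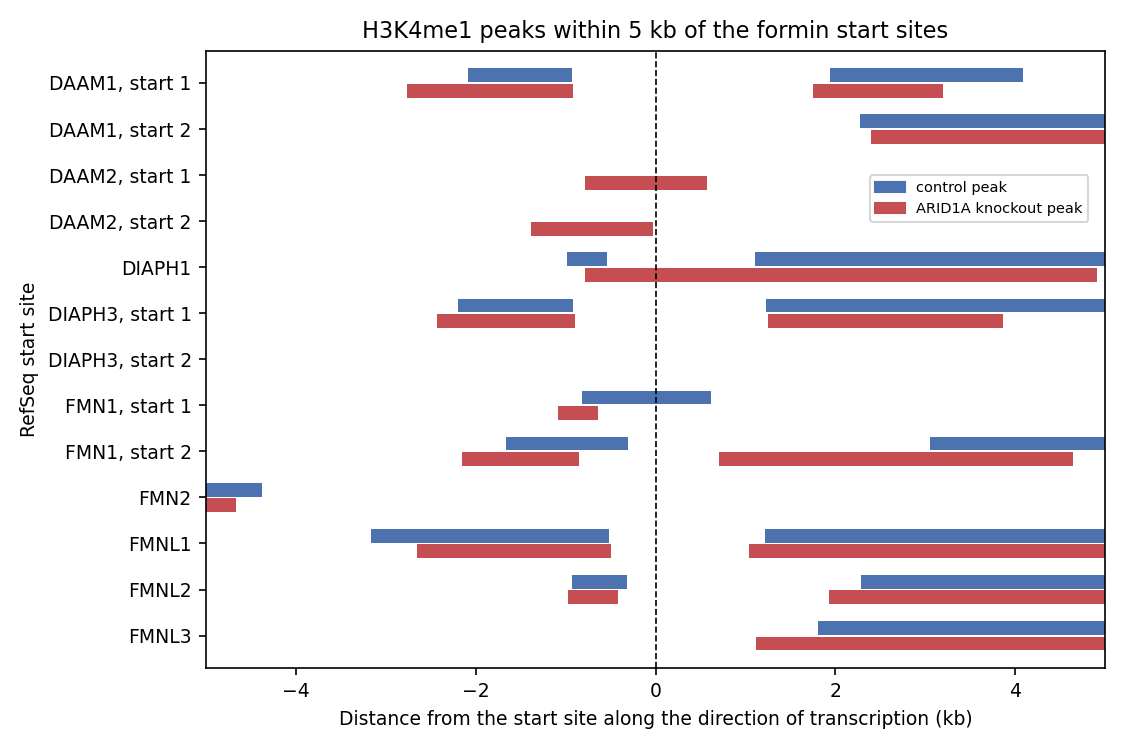
H3K4me1 peaks within 5 kb of the 13 RefSeq start sites of the formin genes (y axis), by distance from the start along the direction of transcription in kb (x axis), control peaks above and knockout peaks below in each row. Both lists leave a gap over the start at FMNL1, FMNL2, DAAM1 (first start), DIAPH3 (first start) and FMN1 (second start), and only the knockout list has a peak over the starts of DAAM2 (first start) and DIAPH1.

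Coverage of the start differed between the lists at 3 genes. At the first start of FMN1 a control peak lay over it (33194092 to 33195536, −log10 q 2.16), and the nearest knockout peak lay 636 bases upstream (33195350 to 33195796). At the first start of DAAM2 a knockout peak lay over it (39791590 to 39792951, −log10 q 1.88) and the nearest control peak was 45661 bases away. At DIAPH1 a knockout peak of 5692 bases ran over the start (141614089 to 141619780, −log10 q 4.80), where the control list had one peak 537 bases upstream and another 1106 bases downstream. The peaks over the FMN1 and DAAM2 starts were below their own list's median −log10 q (3.18 control, 3.77 knockout), and the one over the DIAPH1 start was above it. The promoter windows of these 3 starts and of FMN2 are shown because the lists differ there, or, for FMN2, because the gene with the largest gain has a bare start. They are from RefSeq, 5′ to 3′ on the gene's own strand, with matches to the motifs listed after them in capitals.
FMN1 first start, minus strand, chr15:33194665-33194964: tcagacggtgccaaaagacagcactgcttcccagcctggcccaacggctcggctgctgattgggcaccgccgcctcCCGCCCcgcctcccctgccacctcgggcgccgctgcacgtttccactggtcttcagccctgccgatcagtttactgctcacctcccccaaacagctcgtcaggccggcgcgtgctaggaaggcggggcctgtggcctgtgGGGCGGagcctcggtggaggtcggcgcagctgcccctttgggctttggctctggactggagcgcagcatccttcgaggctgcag
DAAM2 first start, plus strand, chr6:39792126-39792425: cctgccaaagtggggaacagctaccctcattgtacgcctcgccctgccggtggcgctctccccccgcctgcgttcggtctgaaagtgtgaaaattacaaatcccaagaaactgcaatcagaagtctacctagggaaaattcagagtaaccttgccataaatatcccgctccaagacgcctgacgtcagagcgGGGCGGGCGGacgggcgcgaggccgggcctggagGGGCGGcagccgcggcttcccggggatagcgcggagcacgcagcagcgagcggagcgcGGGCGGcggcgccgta
DIAPH1, minus strand, chr5:141618951-141619250: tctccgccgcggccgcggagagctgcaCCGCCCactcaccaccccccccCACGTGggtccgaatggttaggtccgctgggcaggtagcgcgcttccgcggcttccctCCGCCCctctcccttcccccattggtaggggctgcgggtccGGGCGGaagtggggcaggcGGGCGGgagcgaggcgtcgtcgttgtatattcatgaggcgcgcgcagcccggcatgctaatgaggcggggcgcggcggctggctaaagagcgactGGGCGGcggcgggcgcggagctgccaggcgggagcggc
FMN2, plus strand, chr1:240091633-240091932: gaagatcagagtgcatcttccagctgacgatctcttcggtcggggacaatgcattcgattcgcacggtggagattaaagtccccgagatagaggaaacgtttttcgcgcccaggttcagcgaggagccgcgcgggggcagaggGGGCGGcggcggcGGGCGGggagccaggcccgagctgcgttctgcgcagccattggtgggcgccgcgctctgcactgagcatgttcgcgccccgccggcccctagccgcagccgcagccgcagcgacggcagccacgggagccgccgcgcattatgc

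All 4 are rich in G and C, at 68.3%, 64.3%, 73.7% and 68.0%, against a median of 58.7% over 35116 promoter windows of the same table. The motifs searched on both strands were GGGCGG (the SP and KLF factors), TGANTCA (AP-1), CATTCC (TEAD), CACGTG (an E-box), CCGGAAG (ETS), TATAAA (the TATA box) and the CArG box of serum response factor. GGGCGG was found in 11 of the 13 formin windows and in 45.0% of all windows. It occurs 2 times in the FMN1 window shown, 4 times in DAAM2, 5 times in DIAPH1 and 2 times in FMN2, overlapping copies counted. CACGTG was found in 1 formin window, that of DIAPH1 (7.26% of all windows), CCGGAAG in 1, the first start of DIAPH3 (10.3%), and CATTCC in 1, the second start of DIAPH3 (14.0%). The AP-1, TATA and CArG motifs (7.71%, 11.5% and 1.29% of all windows) were found in none of the 13. A match describes the letters of a window and does not show that a factor binds.

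The 6 formin genes outside the list of 9 also differed in both directions, with 3 higher in the knockout list, 2 lower and 1 within 1000 bases. Of all protein-coding genes 20.2% were called higher and 30.0% lower, and nothing is read from counts over 6 genes. INF2, which acts at the endoplasmic reticulum and mitochondria, had 19837 control and 23702 knockout bases. FHDC1, a formin gene linked to microtubules and cilia, had 6128 and 9171. GRID2IP, which encodes a synaptic protein, had 0 and 2166, from a single knockout peak of −log10 q 1.99. DIAPH2, on chromosome X, had 13510 and 9937 over 1.45% and 1.07% of its window, and FHOD3, a sarcomere formin gene, 41604 and 40197. FHOD1, which acts on stress fibres, had 11161 and 11117.

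Genes of formin partners and of the other actin nucleators mostly had fewer knockout than control bases, unlike FMN1 and FMN2. Of 24 partners and regulators 18 were lower and 2 higher, with a median difference of -2348.5 bases. The largest deficits were at CDC42, the GTPase that opens several formins (33685 control and 14524 knockout bases), and CAPZA1, a subunit of the protein that caps filament ends (28538 and 20952). The 2 higher genes were ARHGEF12, which encodes an activator of RhoA (49543 and 57638), and RHOA (32674 and 34725). Of 18 genes of the Arp2/3 complex, its activators and other nucleators 12 were lower and 2 higher, with a median difference of -1758.5 bases. WASF2, an activator of the Arp2/3 complex, had 29445 and 18289 bases and JMY, a nucleator gene, 14443 and 5344, whereas COBLL1 had 8457 and 15877 and WIPF1, which encodes a partner of WASP, 7234 and 12389. Of all 19974 protein-coding genes 30.0% were called lower and 20.2% higher, and 9947 were within 1000 bases. Every gene of the 2 lists had control coverage, of at least 1697 (partners) and 5800 (nucleators) bases. The shares over all genes are not matched for coverage, and neither list was tested against them.

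Of the 128 control peaks at the 9 genes 25 (19.5%, 95% exact binomial interval 13.1 to 27.5) had no knockout counterpart, while 33 of 126 knockout peaks (26.2%, 18.8 to 34.8) had no control counterpart. The intervals cover counting error over peaks only. Over the whole lists the shares were 28.2% and 21.3%, given as a description, since the peak positions chose the genes. FMN1 and FMN2 held 22 of the 33 knockout peaks without overlap, and DIAPH3 held 10 of the 25 such control peaks.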

How the data were processed

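H3K4me1 ChIP-seq was done in control and ARID1A knockout MDA-MB-231 cells. Groups came from the sample titles, which match the genotype and antibody labels. The protocol text names the antibody for H3K4me3, whereas the titles and the antibody label say H3K4me1, which is used here. The aligner was Bowtie2 2.3.5.1, the peak caller MACS2 2.2.6 and the build hg38, per the submitters' processing notes. The caller's settings, and how both replicates entered a list, were not stated in the labels, so each list was taken as a pool. The authors' deposited columns hold a peak's position, width, pileup (a signal), fold enrichment (a ratio to its own input) and −log10 q-value, per the file headers. The p-value column was not used.

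Covered bases were counted with Python 3.11.15 and pandas 2.3.3 over RefSeq GRCh38.p14 gene records plus 5000 bases either side, and the counting was tested on simulated data. Peaks sharing at least 1 base counted as overlapping. The background estimate assumes a pseudocount of 1. The 2 shares of peaks without overlap over the 9 genes, in the full lists, have exact Clopper-Pearson intervals. Other percentages are given without an interval. No p-value was computed. Strand came from the promoter table. The tables used here give no exons, so peaks were not classed as exonic or intronic, and the planned protein comparison was not run, as protein sequences were not used here. The members, gene lists and motifs were chosen with earlier results of these data known. Genes and peaks were named by fixed rules: all formin genes, up to 2 genes of largest difference per direction in each partner list, the 3 genes most like FMN2, neighbouring genes that differ by at least 1000 bases, and the strongest peak and the widest peak without overlap of each list. Some peaks that the rule names were left out for length, and some neighbouring genes are not reported here. The gene parts, the peaks at start sites, the widest peaks and the peaks that contain or overlap a named one were chosen after their values were seen.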

Additional observations from a re-analysis of the deposited data

How the results depend on the processing

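FMN2 and FMN1 were higher in the knockout list, and FMNL3 lower, under all 8 other windows and peak selections tried, 1 of which (the strongest 50000 peaks of each list) was chosen after seeing the data. For FMN2 the difference ran from 9662 to 94256 bases, for FMN1 from 12190 to 45658 and for FMNL3 from -11842 to -4092. The sign turned under 3 of 8 alternatives at FMNL1, 1 at FMNL2, 2 at DIAPH1 and 3 at DIAPH3, and the cause was not tested. It also turned under 3 at DAAM1 (range -4005 to 1688) and 5 at DAAM2 (-2135 to 149), whose differences in the full lists were under 1000 bases. With 50000 bases either side, FMNL1 came to -3612 bases. With peaks under a −log10 q of 3 dropped, DIAPH3 came to 6827. With peaks under a −log10 q of 5 dropped, FMNL1 came to -3396, DIAPH1 to 4120 and DIAPH3 to 11143. At a fold of at least 4, FMNL2 came to -10678, DIAPH1 to 6568 and DIAPH3 to 6348. With the same merging distance and shortest peak (1445 and 361 bases) FMNL1 came to -2. FMNL1 was still called higher under only 1 of the 8 alternatives. The share of knockout peaks without overlap was 44.4% (whole list 32.4%) when at least 50% of a peak had to be covered and 37.7% (35.1%) among peaks past a −log10 q of 5, and that of control peaks 26.6% (38.3%) and 17.1% (24.9%). The background ratio at FMN2, relative to the genome-wide one, was 1.65 over shared peaks alone and 1.50 with no pseudocount, and 1.25 in its flanks. No paired analysis was possible because each genotype has 1 pooled list, and for the same reason no replicate could be left out. Depth is unknown, so a missing peak does not show that the mark is absent.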

Other observations

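Among the nearest protein-coding genes of the other formin genes, KIF6, a kinesin gene 66967 bases from the weakly marked DAAM2, had 2131 control and 9956 knockout bases, the largest difference next to these 7 genes. GPR135, a receptor gene next to DAAM1, went the other way with 5355 control and 1279 knockout bases, and the neighbours of FMNL3, TMBIM6 and FAM186B, had 12057 and 7660 control and 8806 and 5148 knockout bases. HEXIM2, beside FMNL1, had 7815 and 9230, and STAM2, beside FMNL2, had 5156 and 6760. TDRD3, beside DIAPH3, had 4226 and 6163, PCDH17 on its other side, 1936271 bases away, 1264 and 0. RYR3, the other neighbour of FMN1, had 4771 and 3321. Neighbours thus did not all follow the direction of the formin gene beside them.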
